A study of Mus musculus with 10 samples.

Results

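Huwe1, Usp10, G3bp1 and G3bp2 were followed as transcripts in C2C12 mouse muscle cells, before and during differentiation, after knockdown of Huwe1 and after overexpression of USP10. They are 4 of the 23388 gene symbols listed in all 4 deposited comparisons, and were chosen by name: Huwe1 and Usp10 are the genes the study perturbed, and G3bp1 and G3bp2 encode known partners of the USP10 protein. All 4 were measured in every column, and each was above 10 FPKM, the number of fragments scaled to transcript length and sequencing depth, throughout, so a filter at 1 FPKM removed none of them.

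Huwe1 is a very large E3 ubiquitin ligase of the HECT type, which takes ubiquitin from an E2 enzyme onto its own catalytic cysteine before passing it to a substrate. Usp10 is a cysteine protease of the USP family, which removes ubiquitin from proteins, so that a ligase and a deubiquitinase acting on 1 substrate work in opposite directions. G3bp1 and G3bp2 are paralogous RNA-binding proteins that nucleate stress granules, the cytoplasmic assemblies of stalled messenger RNA, and both bind a short motif of USP10. C2C12 is a mouse myoblast line that leaves the cell cycle and fuses into multinucleated myotubes in low serum.

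The comparisons were made in 4 pairs of columns. In growth medium on day 0, a control library labelled wildtype was compared with 2 Huwe1 knockdown libraries, each with its own short hairpin RNA (shRNA). After 6 days in differentiation medium, another library labelled wildtype was compared with 2 knockdown libraries carrying the same 2 hairpins. After 8 days, a library from control myotubes, labelled non-targeting RNA, was compared with 2 myotube libraries carrying 2 other hairpins. The fourth comparison, on day 6, set 1 library of cells with a USP10 cDNA under the EF1a promoter against a control. Which library that control came from could not be mapped: its header carries the name used for the day 6 control of the knockdown comparison, but its values differ, so it is called the control of the USP10 comparison here. By the study's methods, knockdown used lentiviral pLKO.1 vectors with puromycin selection. Myoblasts were infected while proliferating, and myotubes on day 4 of differentiation. All libraries came from 1 cell line, and the USP10 cells were described as a stable line. The sources used here do not say which species the USP10 cDNA came from, whether the stable line was 1 clone, or whether the wildtype cells were infected with a control virus.

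The hairpin targets are shown because the same transcript was hit at different places on different days. The sources also differ on them, since the hairpins listed in the methods are the day 8 pair and the labels give another pair for days 0 and 6. Each line gives the transcript sequence 5′ to 3′, read from the longest Huwe1 transcript of the GENCODE annotation, with the hairpin target in capitals and up to 20 bases on each side in lower case.
Days 0 and 6, hairpin 1: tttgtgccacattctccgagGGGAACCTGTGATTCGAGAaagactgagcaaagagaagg
Days 0 and 6, hairpin 2: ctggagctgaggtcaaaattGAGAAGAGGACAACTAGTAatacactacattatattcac
Day 8, hairpin 1: GCACTCTTCATAACTCACTTT
Day 8, hairpin 2: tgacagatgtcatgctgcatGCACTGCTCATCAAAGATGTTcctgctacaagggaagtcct
Every target occurred 1 time in this transcript of 14579 bases and 83 exons. In mouse build mm10, on the plus strand, hairpin 1 of days 0 and 6 lies in coding exon 32 at chrX:151883185-151883203. Hairpin 2 of those days crosses the junction of coding exons 8 and 9, with its first and last base at chrX:151852544-151853408. Day 8 hairpin 1 lies in the 3′ untranslated part of exon 83 at chrX:151934876-151934896, and no bases around it are shown. Day 8 hairpin 2 crosses the junction of coding exons 19 and 20, with its first and last base at chrX:151862387-151862654. Among all annotated transcripts, no gene other than Huwe1 matched any target with 0 or 1 mismatches, and in the transcripts of Usp10, G3bp1 and G3bp2 the closest sites had 5 to 8 mismatches.

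**Figure D1:**
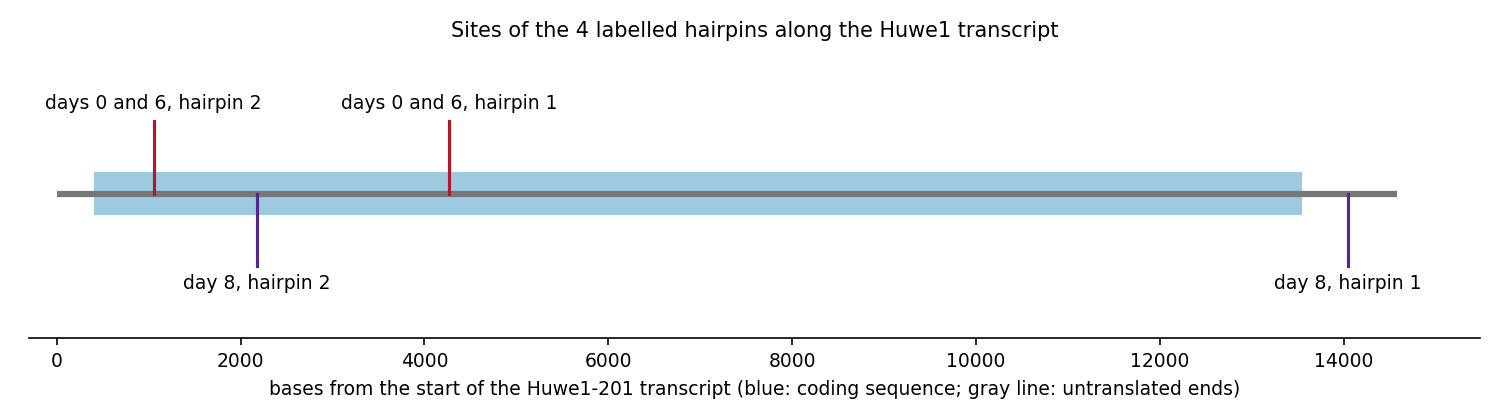
Position of the 4 hairpin targets along the longest Huwe1 transcript, in bases from its start, with the coding sequence in blue and the untranslated ends as a gray line. The 2 targets of days 0 and 6 begin at bases 4256 and 1045, and the 2 targets of day 8 begin at bases 14038 and 2170, the former beyond the coding sequence that ends at base 13542.

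Each column holds 1 FPKM value per gene, and the 2 knockdown libraries of a day were pooled into 1 column, so no value has a replicate error, no test was made and no difference has a replicate check. The single-library columns were estimated at 7820000 to 30400000 fragments from the steps between their lowest FPKM values, the lowest being the control of the USP10 comparison. Pooled columns gave no estimate. None of the 4 genes was 2-fold apart between the 2 day 6 control columns, where 8.66% of genes were at least that much lower in the control of the USP10 comparison, with 11.2% higher. Over 10358 genes, the log2 ratios between these columns had a robust SD of 0.56, which serves as a measure of how far the 2 control columns differed. They are not shown to come from separate cultures. They were also normalized separately and differ in estimated depth. Of 5 listed early myogenic markers, Des, Cdh15, Myod1 and Myf5 were at 345.2, 53.8, 21.7 and 12.5 FPKM in the day 0 control. Pax7 was at 0 there. In the day 6 control, Des, Cdh15, Myod1 and Pax7 were higher, at 1769, 121.4, 154.8 and 7.54 FPKM. Myf5 was lower, at 3.51 FPKM. The 7 measured myotube markers summed to 10.2 FPKM in the day 0 control and to 18026 FPKM in the day 6 control.

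Huwe1 transcript was lower in every knockdown column than in its control, and most clearly in myoblasts. On day 0, its level was 38.3 FPKM in the control against 15.2 FPKM in the knockdown, a log2 ratio of -1.33 or 2.52-fold lower, where 1.69% of 10874 genes passed 2-fold downward and 0.772% were lower by as much as Huwe1. On day 6, it was 35.1 FPKM in the control against 21.9 FPKM in the knockdown, a log2 ratio of -0.68 (1.61-fold), where 13.4% of 11695 genes passed 2-fold downward and 20.4% were lower by as much as Huwe1. In day 8 myotubes, it was 55.4 FPKM in the control against 33.0 FPKM in the knockdown, a log2 ratio of -0.75 (1.68-fold), where 10% of 11755 genes were at least 2-fold lower. The median of the 30 housekeeping genes was itself at -0.36 in this comparison, with 23 of them below 0, and with it taken out, Huwe1 was at -0.38. Knockdown thus left 15.2 to 33.0 FPKM of Huwe1 transcript, in columns of separately normalized comparisons. The day 8 knockdown held the most, and its control was also the highest. As a share of its own control, before any centring, 39.7% was left on day 0, 62.2% on day 6 and 59.6% on day 8. Days 0 and 6 had the same hairpins. On day 8, hairpins and day changed together and cannot be told apart.

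USP10 overexpression left Huwe1 near its control. The values were 44.7 FPKM in the control against 41.0 FPKM in the USP10 cells, a log2 ratio of -0.13, where 10% of 11482 genes were at least 2-fold lower. The difference is smaller than that between the 2 day 6 controls, 35.1 and 44.7 FPKM, which are 1.27-fold apart.

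Across the control columns, Huwe1 stayed within 2-fold. Set against 38.3 FPKM on day 0, the 2 day 6 controls were at log2 ratios of -0.12 and 0.22, and the day 8 control at 0.54. With the median of 30 housekeeping genes taken out, they were at 0.20, 0.74 and 0.57, so no direction is given for the first of them. The day 8 control, the highest Huwe1 level of the 8 columns, was 1.58-fold above the day 6 control of the knockdown comparison. It is labelled non-targeting RNA, and the day 0 control and that day 6 control wildtype, so label and day cannot be told apart. Its 4 proliferation markers summed to 129.3 FPKM, beside 3.09 FPKM in that day 6 control. From that day 6 control to the day 8 control, none of the 4 members passed 2-fold, while 5.81% of genes were lower by that much and 13.8% higher. Each of the 4 comparisons was normalized on its own, so levels from different ones are a description. From lowest to highest, Huwe1 ran from the knockdown columns of days 0, 6 and 8 through the day 6 and day 0 controls, the USP10 cells and the control of the USP10 comparison to the day 8 control. Between the third and the eighth place, each step was 1.06-fold to 1.24-fold, less than the 1.27-fold between the 2 day 6 controls.

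**Figure D2:**
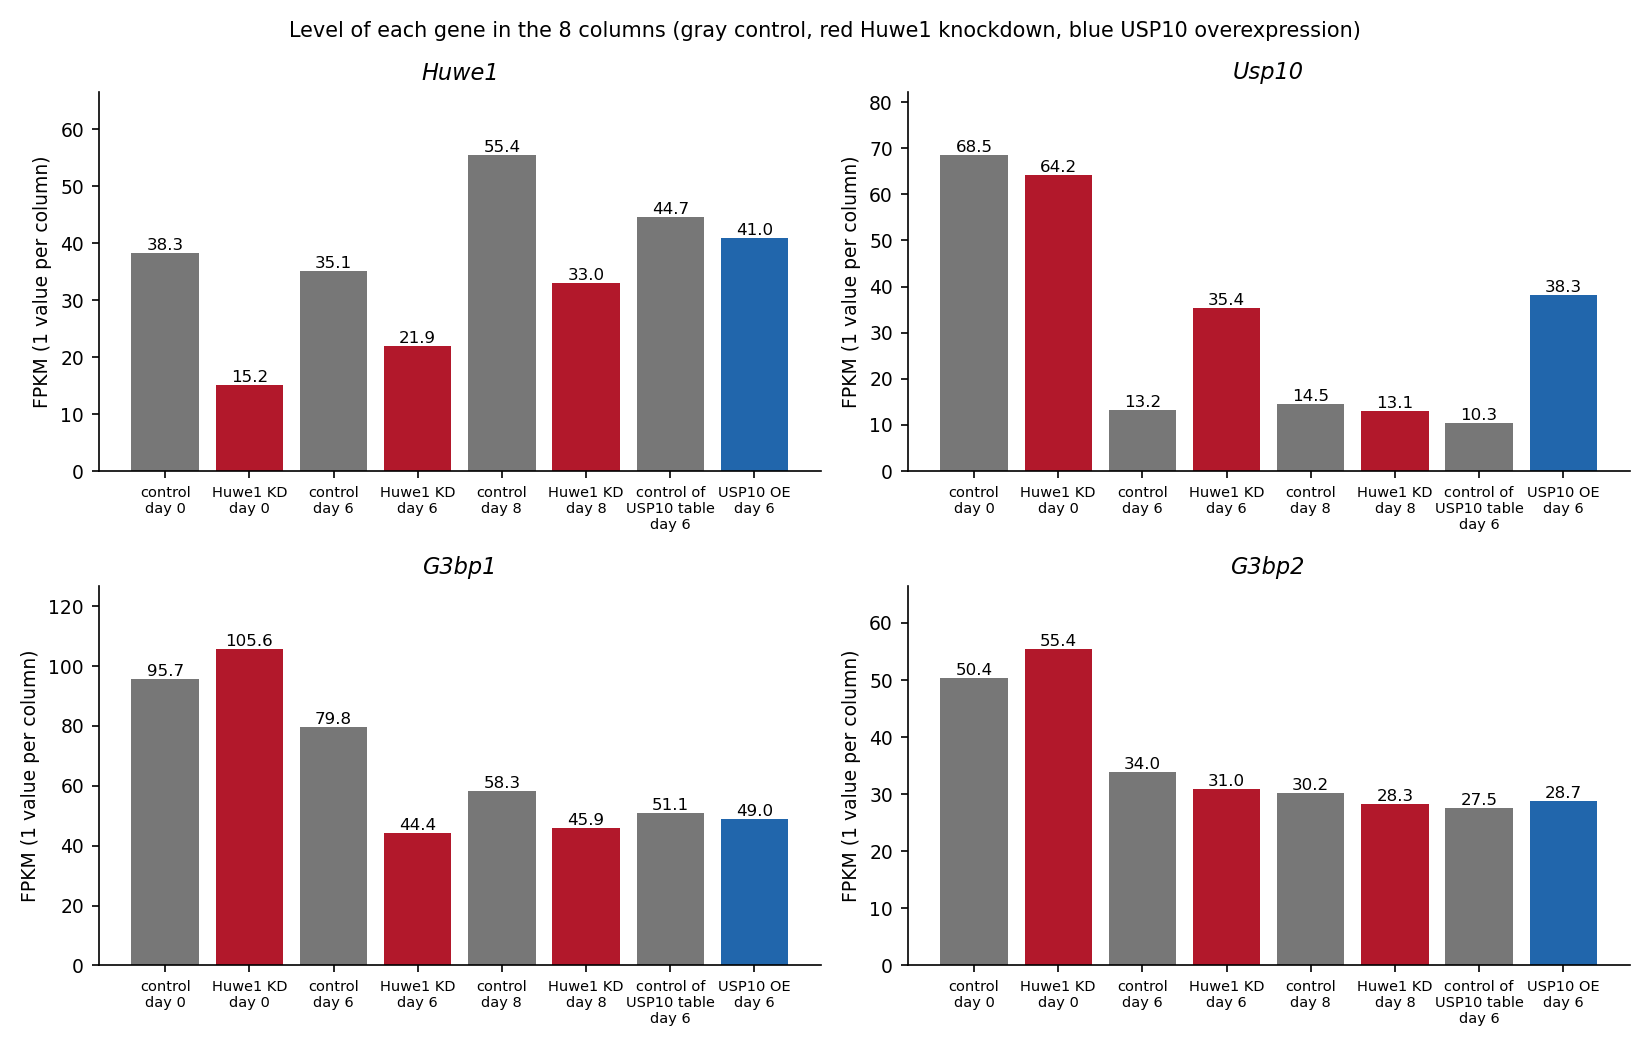
Level of Huwe1, Usp10, G3bp1 and G3bp2 in FPKM in each of the 8 columns, 1 bar per column, with controls in gray, Huwe1 knockdown (KD) in red and USP10 overexpression (OE) in blue. Huwe1 is lower in each knockdown than in its control, and Usp10 is high on day 0 (68.5 and 64.2 FPKM), low in 4 later columns (10.3 to 14.5 FPKM) and between these in the day 6 knockdown and the USP10 cells (35.4 and 38.3 FPKM). Each comparison was normalized on its own, so levels from different ones are a description.

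Counting error could be estimated for the single-library columns. For Huwe1, some 5100 to 17000 fragments give 95% Poisson intervals with half-widths of 1.52% to 2.76%, and for Usp10, with about 260 to 5000 fragments, the half-widths are 2.79% to 12.2%. Such intervals cover counting error only, not the variation between cultures.

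Among 25 listed HECT ligases, Huwe1 ranked 5 in the day 0 control. It ranked 14 in the day 0 knockdown, 7 in the day 6 control, 10 in the day 6 knockdown, and 5 in the day 8 control, the day 8 knockdown and both columns of the USP10 comparison. Nedd4, a HECT ligase of membrane proteins, stood first in all 8 columns, at 252.9 FPKM in the day 0 control against 387.7 FPKM in the day 8 control. In the day 0 knockdown, 0 of the 23 other HECT ligases at 1 FPKM or more were 2-fold lower or higher, beside 1.69% and 1.9% of all genes, with a median log2 ratio of 0.08 beside 0.00 over all genes. The lowest of those with at least 5 FPKM were the giant ligases Herc2 (log2 ratio -0.42) and Herc1 (-0.41), and the highest was Smurf2 (0.40). On day 6, 2 of 23 were 2-fold lower in the knockdown and 3 higher, beside 13.4% and 17.6% of all genes, with a median of 0.00 beside -0.01. Smurf1, a ligase of the bone morphogenetic protein pathway, was at 10.3 FPKM in that control and 34.5 FPKM in the knockdown. In the day 8 knockdown, 1 of 21 was 2-fold lower and 0 higher, beside 10% and 7.89% of all genes, with a median of -0.07 beside 0.00. The one was Herc3, at 9.73 and 4.62 FPKM. With USP10 overexpressed, 0 of 22 were 2-fold lower and 2 higher, beside 10% and 9.7% of all genes, with a median of -0.06 beside 0.05. Smurf1 was one of them, at 13.2 FPKM in the control against 39.5 FPKM in the USP10 cells.

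Huwe1 works with E2 enzymes of the UbcH5 and UbcH7 type, of which 4 were listed and measured. Ube2d1 was at 146.5 FPKM in the day 8 control against 64.8 FPKM in the day 8 knockdown, a log2 ratio of -1.18. It was the 1 of 4 that passed 2-fold in any comparison. In the day 8 knockdown, 10% of all genes were at least 2-fold lower. Ube2l3, the UbcH7 gene, was at log2 ratios of 0.25 in the day 0, -0.35 in the day 6 and -0.54 in the day 8 knockdown, and at -0.50 in the USP10 cells.

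The let-7 family microRNA gene Mir98 is listed within Huwe1's locus. It was at 16.3 FPKM in the day 0 control against 8.43 FPKM in the day 0 knockdown, and is listed at 0 in the other 6 columns. The neighbouring Mirlet7f-2 is listed at 0 in all 8 columns. The assay selected polyadenylated RNA, and these values do not measure mature microRNAs.

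Usp10 was the member with the widest range, 6.63-fold between its lowest and highest column. In the deposited FPKM it fell into 3 bands, across comparisons that were each normalized on their own. In the day 0 control and knockdown it was at 68.5 and 64.2 FPKM. A middle band held the day 6 knockdown and the USP10 cells, at 35.4 and 38.3 FPKM. In the 2 day 6 controls and the day 8 control and knockdown it was at 13.2, 10.3, 14.5 and 13.1 FPKM. The top of the lowest band was 2.45-fold below the middle one, and the top of the middle band 1.68-fold below the highest. Within a band, neighbours were at most 1.27-fold apart. For the day 6 knockdown, the step from the highest band depends on scaling. From the day 0 to the day 6 knockdown, the log2 ratio was -0.86, or -0.24 with the housekeeping median taken out. From the day 0 control to the USP10 cells, it was -0.84, or -0.62 with that median taken out. The 2 day 6 control columns, not shown to be separate cultures, were 1.28-fold apart for this gene.

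In control cultures Usp10 was much lower after differentiation than before. From day 0 to the day 6 control, the log2 ratio was -2.37 (5.18-fold lower), where 23.2% of 11653 genes passed 2-fold downward and 8.70% were lower by as much as Usp10. Against the control of the USP10 comparison, the ratio was -2.73 (6.62-fold), where 20.9% passed 2-fold downward. Against the day 8 control, it was -2.24 (4.73-fold), where 15.7% of genes did. The day 8 control is labelled non-targeting RNA and the day 0 control wildtype, so label and day changed together. From the day 6 to the day 8 control, the log2 ratio was 0.13. The median housekeeping gene was itself lower by 0.32 log2 units on day 6 and by 0.51 in the control of the USP10 comparison, and with this taken out, the Usp10 ratios were -2.06 and -2.21. In a culture measured as a whole, fewer cells of one kind and less transcript per cell cannot be told apart.

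Huwe1 knockdown left Usp10 near its control on days 0 and 8 but not on day 6. In myoblasts, the log2 ratio of knockdown to control was -0.09, where 1.69% of genes were at least 2-fold lower. In day 8 myotubes, it was -0.14, where 10% of genes passed 2-fold downward, and with the housekeeping median taken out it was 0.22, so no direction is given there. On day 6, Usp10 was at 13.2 FPKM in the control against 35.4 FPKM in the knockdown, a log2 ratio of 1.42 or 2.68-fold higher, where 17.6% of genes were at least 2-fold higher and 12.8% were higher by as much as Usp10. Measured against the control of the USP10 comparison instead, a choice made after seeing the data, the ratio was 1.77. The difference of the day 6 ratio from those of days 0 and 8 was not tested, since no column has replicates. From day 0 to day 6 of the knockdown columns themselves, Usp10 was at a log2 ratio of -0.86 (1.82-fold lower), where the controls gave -2.37. With the housekeeping medians taken out, these were -0.24 and -2.06.

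The USP10 cells held 38.3 FPKM of Usp10 beside 10.3 FPKM in their control, a log2 ratio of 1.89 or 3.70-fold higher. At least 2-fold higher were 9.7% of genes, and 3.99% were higher by as much as Usp10. About 260 fragments lay behind the control value, with a 95% Poisson interval from 9.13 to 11.7 FPKM, and about 3500 behind the other, with an interval from 37.0 to 39.5 FPKM. Against the other day 6 control, the ratio was 1.53. The value adds transcript of the cell's own gene to any read of the introduced cDNA that could be placed on it, and the 2 cannot be told apart. So measured, Usp10 in the USP10 cells was 1.79-fold below the day 0 control and 1.08-fold above the day 6 Huwe1 knockdown.

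Some of the marker lists moved in the 2 day 6 comparisons where Usp10 did, and their part in the Usp10 values was not tested. Of 5 early myogenic markers, Myod1 and Pax7 were 2-fold lower in the day 6 knockdown and Myf5 higher, beside 13.4% and 17.6% of all genes. In the USP10 cells, Pax7 was 2-fold lower and Myf5 higher, beside 10% and 9.7% of all genes. In the day 6 knockdown, all 7 measured myotube markers were at least 2-fold lower, beside 13.4% of all genes. Their summed level was 4020 FPKM beside 18026 FPKM in the control. All 5 fibroblast or mesenchymal markers (Cd34, Dcn, Lum, Ly6a and Pdgfra) were at least 2-fold higher, with a sum of 3727 FPKM beside 13.2 FPKM. All 4 proliferation markers were also at least 2-fold higher, with a sum of 16.0 FPKM beside 3.09 FPKM. Of all genes, 17.6% were higher by that much. In the USP10 cells, 5 of 7 myotube markers were 2-fold lower, beside 10% of all genes (sum 4350 FPKM beside 8271 FPKM). Of the fibroblast or mesenchymal markers, 4 of 5 were 2-fold higher, beside 9.7% of all genes (sum 3566 FPKM beside 112.8 FPKM). The proliferation markers, 0 of 4 past 2-fold there, summed to 10.4 FPKM in the USP10 cells and 12.7 FPKM in their control. None of the myotube, proliferation or mesenchymal markers was at 0 in these 4 columns. In the day 8 knockdown, where Usp10 was at 13.1 FPKM beside 14.5 FPKM in the control, all 7 myotube markers were also 2-fold lower (sum 3102 FPKM beside 14802 FPKM). All 4 proliferation markers were 2-fold lower there (sum 11.9 FPKM beside 129.3 FPKM). Of the 5 early myogenic markers, 1 (Des) was 2-fold lower and 0 were higher. Of all genes in this comparison, 10% were at least 2-fold lower and 7.89% higher. Of the mesenchymal markers there, Dcn and Pdgfra were 2-fold higher and Ly6a 2-fold lower, and the 5 summed to 26.5 FPKM in the knockdown and 27.2 FPKM in the control, with Lum at 0 in the control. The 4 adipocyte markers were under 1 FPKM in every column, and Adipoq and Lep were at 0 in all of them.

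**Figure D3:**
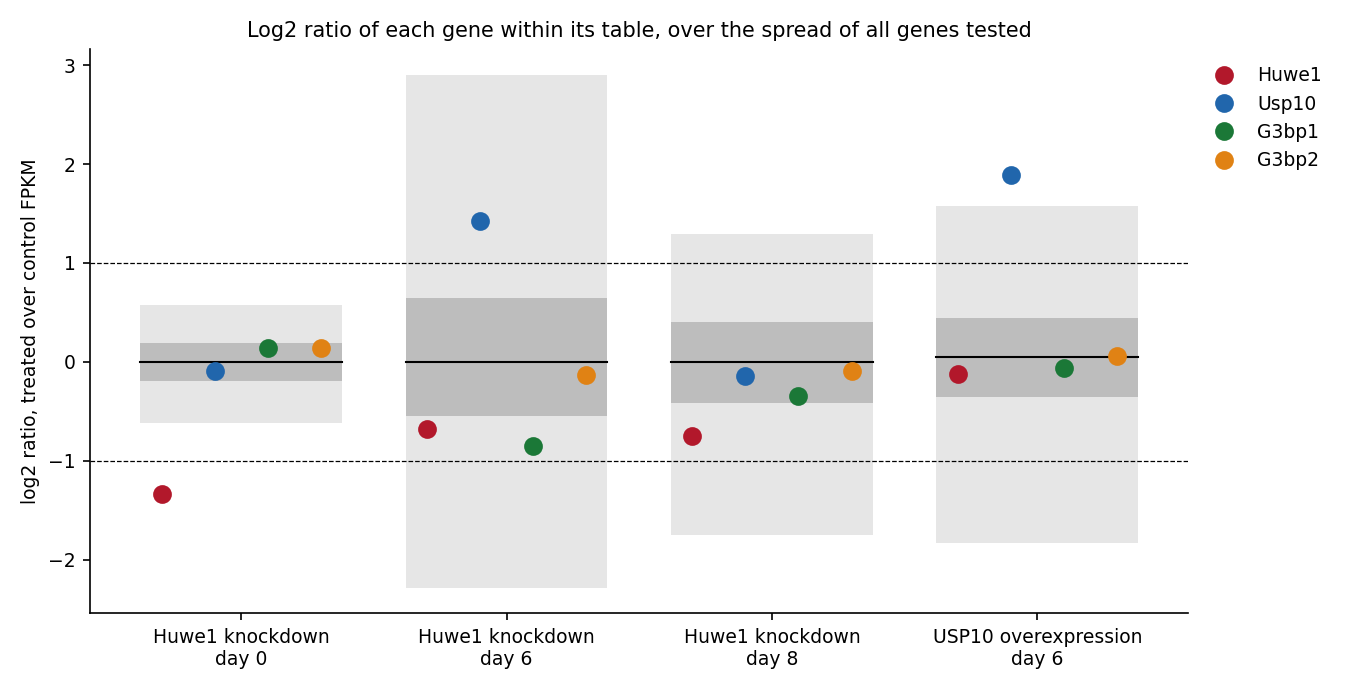
Log2 ratio of treated to control FPKM for each of the 4 genes in each comparison (colored points), over all genes tested in it (dark gray from the 25th to the 75th percentile, light gray from the 5th to the 95th, black line at the median, dashed lines at 2-fold). Huwe1 at -1.33 on day 0 and Usp10 at 1.89 in the USP10 cells lie outside the light band, and Usp10 at 1.42 in the day 6 knockdown lies inside a band that is much wider there.

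Among 48 USP family deubiquitinases, Usp10 stood near the top in myoblasts and near the middle after differentiation. It ranked 4 in the day 0 control and 4 in the day 0 knockdown, then 26 in the day 6 control, 28 in the control of the USP10 comparison, 26 in the day 8 control and 28 in the day 8 knockdown. It ranked 8 in the day 6 knockdown and 6 in the USP10 cells. Usp1, which acts in DNA repair, was first on day 0 at 82.7 FPKM in the control, and Usp47 was first in every later column, at 122.1 FPKM in the day 6 control. From the day 0 to the day 6 control, 5 of the 42 other USP genes at 1 FPKM or more were 2-fold lower (Usp43, Usp1, Usp46, Usp27x and Usp45) and 10 were higher, beside 23.2% and 21.5% of all genes, with a median log2 ratio of 0.05 beside -0.05. From the day 0 to the day 8 control, 3 of 43 were lower and 10 higher, beside 15.7% and 20% of all genes, with a median of 0.16 beside 0.03. The decrease of Usp10 was not the deepest in its family. Usp1 was at 82.7 FPKM in the day 0 and 15.8 FPKM in the day 6 control, a log2 ratio of -2.39 beside -2.37 for Usp10, and the weakly expressed Usp43, at 2.31 and 0.0643 FPKM, was at -4.96. To the day 8 control, Usp43 alone of the 43 was lower by as much as Usp10.

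In the day 0 knockdown, 0 of 41 other USP genes passed 2-fold in either direction, beside 1.69% of all genes lower and 1.9% higher, and their median log2 ratio was 0.02 beside 0.00. On day 6, 6 of 42 were lower in the knockdown and 3 higher, beside 13.4% and 17.6% of all genes, with a median of -0.38 beside -0.01. The lowest of those with at least 5 FPKM was Usp28, at 61.1 and 6.72 FPKM, and the highest was Usp54, at 4.14 and 9.71 FPKM. In the day 8 knockdown, 1 of 42 was lower, Usp13 at 13.5 and 3.71 FPKM, and 0 were higher, beside 10% and 7.89% of all genes, with a median of 0.01 beside 0.00. Of 41 in the USP10 comparison, 3 were lower and 1 higher with overexpression, beside 10% and 9.7% of all genes, with a median of -0.12 beside 0.05. Usp28 was again the lowest, at 42.9 and 8.47 FPKM. Besides Usp10, the 3 USP genes that passed 2-fold upward in the day 6 knockdown were Usp48, Usp54 and the interferon-induced Usp18.

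**Figure D4:**
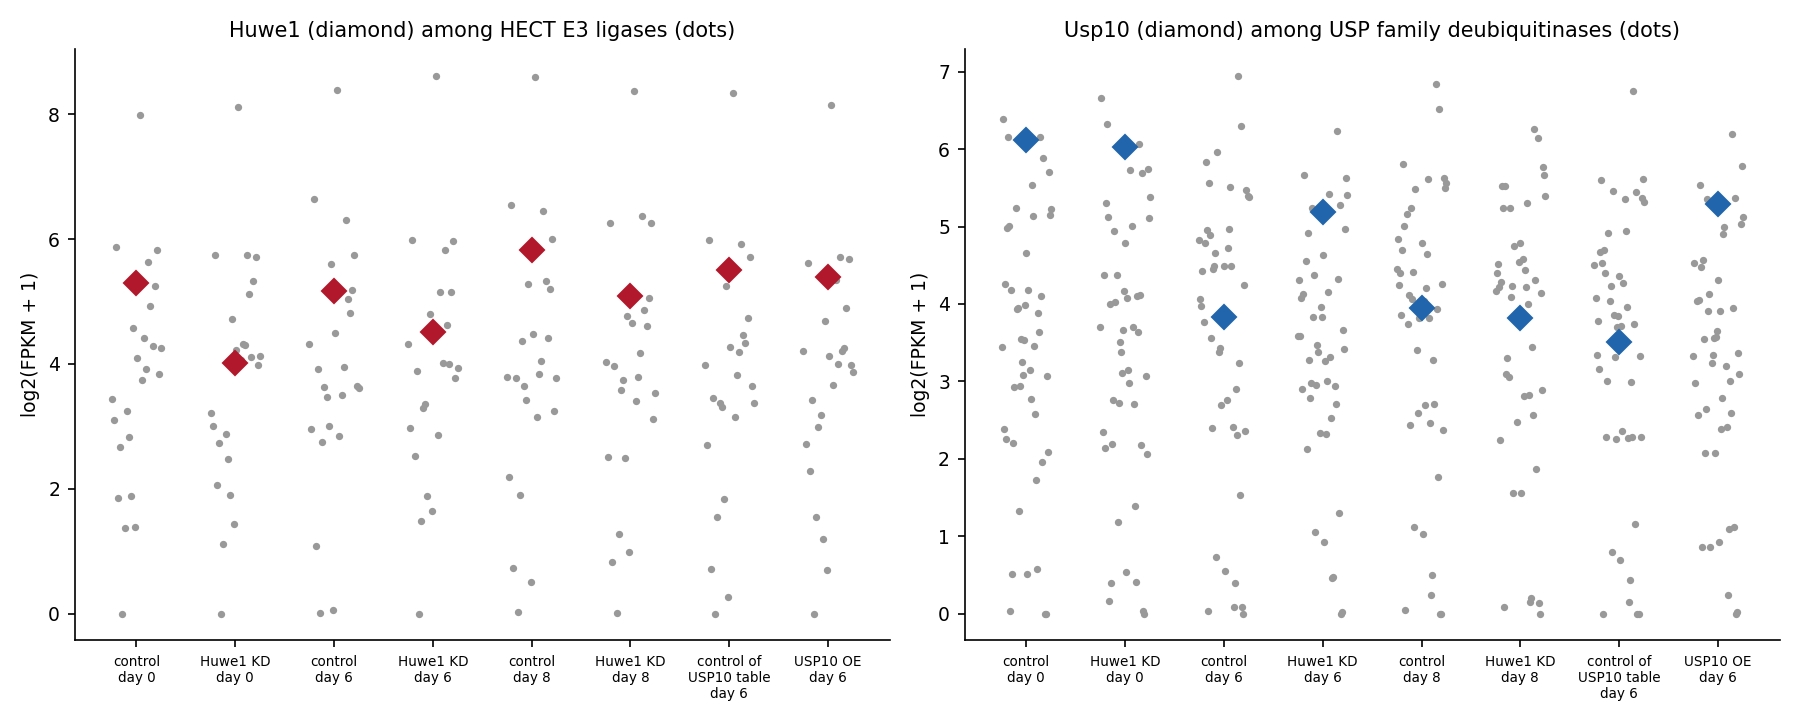
Left, log2(FPKM + 1) of Huwe1 (diamonds) and of the other listed HECT ligases (dots) in the 8 columns. Right, the same for Usp10 and the other listed USP deubiquitinases. Huwe1 lies in the upper part of its family except in the day 0 knockdown, and Usp10 lies near the top on day 0, near the middle in 4 later columns and in the upper part in the day 6 knockdown and the USP10 cells.

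The ratio of Usp10 to Huwe1 within a column does not depend on how the comparisons were scaled against each other. It was 1.79 in the day 0 control and 0.376, 0.231 and 0.261 in the 2 day 6 controls and the day 8 control, so that Usp10 transcript exceeded Huwe1 transcript per length in control myoblasts and was below it in every later control. In the Huwe1 knockdown, the ratio was 4.23 on day 0, 1.62 on day 6 and 0.396 on day 8, each above its control. Less Huwe1 transcript raises this ratio by itself. Beside these ratios, the log2 ratios of knockdown to control were -1.33 for Huwe1 and -0.09 for Usp10 on day 0, -0.68 and 1.42 on day 6, and -0.75 and -0.14 on day 8. The USP10 cells, where Usp10 is the overexpressed gene, had a ratio of 0.934 beside 0.231 in their control. These are ratios of transcripts, and the files hold no protein level.

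In the deposited FPKM, G3bp1 and G3bp2 were both highest on day 0. G3bp1 was at 95.7 FPKM in the day 0 control against 105.6 FPKM in the day 0 knockdown, at 79.8 and 44.4 FPKM in the day 6 control and knockdown, at 58.3 and 45.9 FPKM on day 8, and at 51.1 and 49.0 FPKM in the control and the cells of the USP10 comparison. The 2 day 0 columns stood above all others. The day 6 control of the knockdown comparison was the highest of the rest, and was 1.56-fold above the other day 6 control, the widest gap between those 2 columns among the 4 genes.

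No G3bp1 ratio passed 2-fold within a comparison. On day 6, the log2 ratio of knockdown to control was -0.85 (1.80-fold lower), where 16.2% of genes were lower by as much. Against the control of the USP10 comparison, the ratio was -0.20, so that the size of this difference rests on which day 6 control it is measured from. On day 8, the ratio was -0.35, or 0.02 with the housekeeping median taken out, so no direction is given, and on day 0 it was 0.14. In the USP10 cells, G3bp1 was at -0.06 against their own control and at -0.70 against the other.

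G3bp2 was the least variable of the 4, with 2.01-fold between its highest and lowest column. Its levels were 50.4 and 55.4 FPKM in the day 0 control and knockdown, 34.0 and 31.0 FPKM on day 6, 30.2 and 28.3 FPKM on day 8, and 27.5 and 28.7 FPKM in the control and the cells of the USP10 comparison. The 6 later columns lay between 27.5 and 34.0 FPKM, with steps of at most 1.10-fold between neighbours. Within comparisons, the log2 ratios of treated to control ran from -0.13 in the day 6 knockdown to 0.14 in the day 0 knockdown, and with the housekeeping median taken out the day 8 ratio turned from -0.10 to 0.27. From the day 0 control to the 2 day 6 controls and the day 8 control, G3bp2 was at -0.57, -0.87 and -0.74, and G3bp1 at -0.26, -0.91 and -0.72. With the housekeeping median taken out, G3bp2 was at -0.25, -0.36 and -0.70, and G3bp1 at 0.06, -0.39 and -0.68. The day 6 values thus depend on scaling, and no direction is given for G3bp1 where it turned from -0.26 to 0.06.

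G3bp1 exceeded G3bp2 in all 8 columns. The ratio of G3bp2 to G3bp1 was 0.527 and 0.524 in the day 0 control and knockdown, 0.426 and 0.698 on day 6, 0.519 and 0.617 on day 8, and 0.539 and 0.587 in the USP10 comparison. The ratio of G3bp1 to Usp10 was 1.40 in the day 0 control and 6.04, 4.94 and 4.03 in the 2 day 6 controls and the day 8 control. It was 1.64, 1.25 and 3.50 in the knockdowns of days 0, 6 and 8, and 1.28 in the USP10 cells. In the day 6 knockdown and the USP10 cells, this ratio was thus below its level in the day 0 control, and in the other later columns it was 3.50 or more. In the USP10 cells, Usp10 is the overexpressed gene, and G3bp1 was at a log2 ratio of -0.06 to their control. In the day 6 knockdown, G3bp1 was at -0.85 and Usp10 at 1.42, and the G3bp1 value depends on the day 6 control used.

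**Figure D5:**
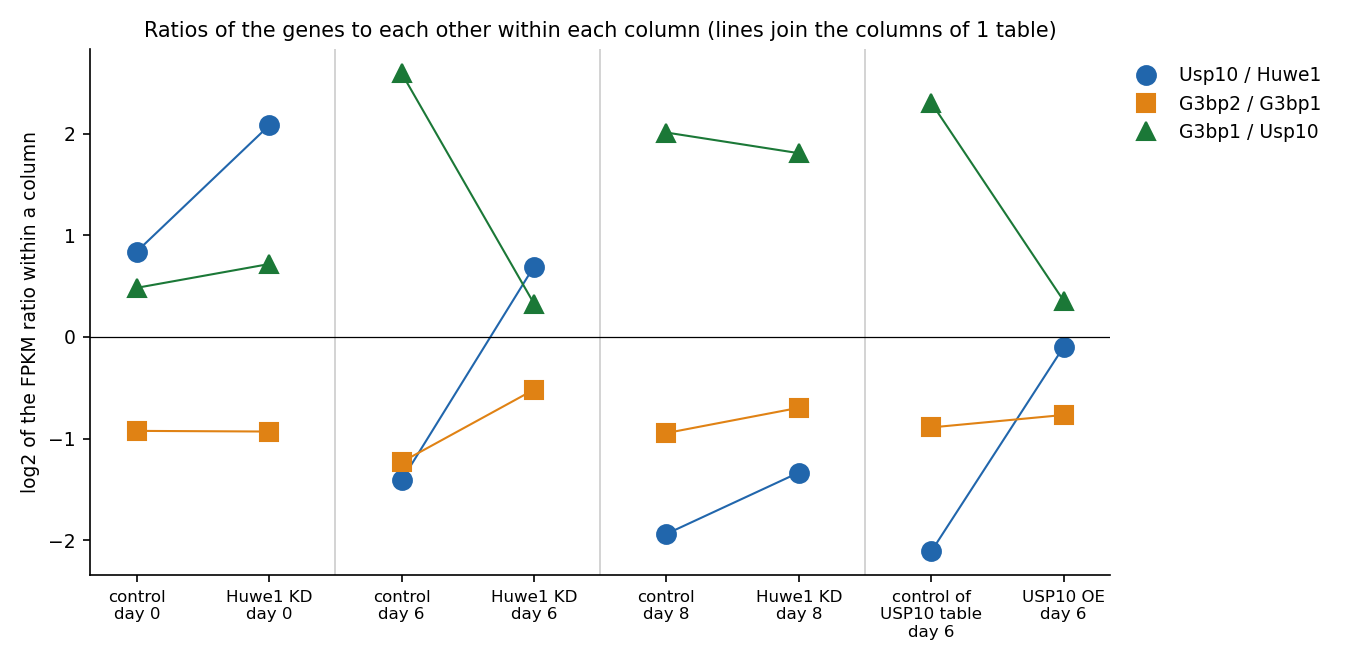
Log2 of the ratio of Usp10 to Huwe1 (blue circles), of G3bp2 to G3bp1 (orange squares) and of G3bp1 to Usp10 (green triangles) within each of the 8 columns, with a line joining the 2 columns of a comparison. The Usp10 to Huwe1 ratio is higher in each treated column than in its control, and the G3bp1 to Usp10 ratio is 6.04 and 4.94 in the day 6 controls beside 1.25 and 1.28 in the treated columns. In the knockdowns, Huwe1 is the targeted gene, and in the USP10 cells, Usp10 is the overexpressed gene. Each treatment by itself thus raises the Usp10 to Huwe1 ratio.

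The 28 other stress granule genes listed were all measured and are given beside the share of all genes. In the day 0 knockdown, 0 of 28 passed 2-fold, beside 1.69% of all genes lower and 1.9% higher, with a median log2 ratio of 0.10 beside 0.00. The highest was Hnrnpa1, a splicing factor and granule component, at 103.6 and 171.9 FPKM. On day 6, 1 was lower in the knockdown and 1 higher, beside 13.4% and 17.6% of all genes, with a median of -0.12 beside -0.01. These were Pabpc4, a cytoplasmic poly(A)-binding protein, at 87.2 and 35.5 FPKM, and Fmr1, the fragile X RNA-binding protein, at 8.60 and 23.8 FPKM. In the day 8 knockdown, 0 passed 2-fold, beside 10% of all genes lower and 7.89% higher, with a median of -0.10 beside 0.00, and Fmr1 was the highest at 15.8 and 31.3 FPKM. The USP10 comparison had 1 lower (Tia1, at 6.83 and 2.93 FPKM) and 1 higher (the cold-inducible Cirbp, at 18.6 and 37.4 FPKM), beside 10% and 9.7% of all genes, with a median of 0.01 beside 0.05. From the day 0 to the day 6 control, 8 of 28 were 2-fold lower and 2 higher, beside 23.2% and 21.5% of all genes, with a median of -0.12 beside -0.05. The 8 included Caprin1, which binds the same surface of G3bp proteins as USP10 does, as well as Pabpc1.

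Transcripts of proteins reported as Huwe1 substrates, by the study itself for Tbp and elsewhere for the others, were counted in the same way. In the knockdowns of days 0, 6 and 8, 1 of 10, 1 of 9 and 1 of 10 were 2-fold lower, beside 1.69%, 13.4% and 10% of all genes. At least 2-fold higher were 0 on each day, beside 1.9%, 17.6% and 7.89% of all genes. The medians were 0.00, -0.48 and -0.16 beside 0.00, -0.01 and 0.00 over all genes. The gene was Myod1 on days 0 and 6, at 21.7 and 9.30 FPKM and at 154.8 and 62.7 FPKM, and Cdc6, which licenses DNA replication, on day 8. Of 6 reported Usp10 substrates, 0 passed 2-fold on days 0 and 8, and 1, Notch1, was 2-fold lower on day 6, beside 13.4% of all genes. In the USP10 cells, 1 of the 6 was higher, beside 9.7% of all genes. It was Tbp, which encodes the TATA-binding protein and is on both lists. Tbp was at 27.8 FPKM in the control of the USP10 comparison and 89.6 FPKM in the USP10 cells. In the day 6 control of the knockdown comparison it was at 10.8 FPKM, so the 2 day 6 controls were 2.58-fold apart for this gene, further than for any of the 4 members. Tbp was at 22.7 and 26.7 FPKM in the day 0 control and knockdown, 14.6 FPKM in the day 6 knockdown, and 15.9 and 22.0 FPKM on day 8. These lists describe transcripts, whereas Huwe1 and Usp10 act on proteins.

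Over the 8 columns, Pearson's r of log2(FPKM + 1) was used to name the genes whose pattern was most like each member among 8693 others with a mean of at least 5 FPKM. The columns are 8 points that share scaling by pairs, and r is a description. For Usp10 these were Arhgdia (0.98), Naa38 (0.98) and Drosha (0.98), and Arhgdia was at 175.5 FPKM in the day 0 control, 66.9 FPKM in the day 6 control against 128.5 FPKM in the day 6 knockdown. For Huwe1 they were Serf1 (0.94), Rnf44 (0.91) and Pknox2 (0.90). For G3bp1 they were Ctps, Eaf1 and Foxn2 (0.99 each), and for G3bp2 Srsf2 (1.00), Nup160 (0.99) and Dhx15 (0.99). Between members, r was 0.92 for G3bp1 with G3bp2, 0.77 for Usp10 with G3bp2, 0.52 for Usp10 with G3bp1 and -0.55 for Huwe1 with Usp10. By rank correlation, the same pairs were at 0.69, 0.76, 0.45 and -0.29. Huwe1 or Usp10 was itself perturbed in each treated column. Their values here, and the genes named as most like them, therefore include the treatments.

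The loci are given as the files list them, in coordinates that match mm10. Huwe1 is at chromosome X from 151803282 to 151935417, Usp10 at chromosome 8 from 119910852 to 119957557, G3bp1 at chromosome 11 from 55469752 to 55500887 and G3bp2 at chromosome 5 from 92052146 to 92083735. The FPKM of a gene sums over its transcripts, so a shift between isoforms within any of these loci was not measured.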

How the data were processed

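RNA from C2C12 cells was sequenced as directional, oligo(dT)-selected libraries (ScriptSeq v2 kit) on an Illumina HiSeq instrument. By the study's methods the authors mapped reads with Tophat and compared groups with Cuffdiff. The submitters' processing notes name Bowtie2, Cuffdiff and mm10, and versions are not given in the sources used here. The deposited FPKM values were made by the authors with Cuffdiff, 1 value per gene and condition. The same tables hold the authors' log2 fold changes, test scores, p-values and q-values, which were not used. The 4 tables were normalized separately. All 8 FPKM columns were used.

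Log2 ratios were taken with a pseudocount of 0.01 FPKM, which understates the change of low genes, over genes at 1 FPKM or more in 1 of the 2 columns, and 2-fold was the limit for a call. With 1 value per condition there is no test. Listed starts counted from 0, since adding 1 matched a GENCODE vM21 start for 46.1% of 21902 genes beside 4.40% without, and 1 was added. Depth came from the FPKM steps of genes with 1 transcript of at least 1500 bases. Hairpin sequences from the labels were matched to GENCODE vM21 transcripts on GRCm38. Ratios and depth steps were tested on simulated data.

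The members and the 7 gene lists and 5 marker lists, written from general knowledge, were chosen with earlier results of these data known. The text names the members, up to 2 lowest and 2 highest genes per list and comparison among those with at least 5 FPKM, the 3 genes most like each member, and markers and Tbp as checks. Single genes named beyond this rule (Nedd4, Usp1 and Usp47 as first of their family, Usp43, Notch1, Cdc6, Usp18, Caprin1, Pabpc1, Mir98, Mirlet7f-2 and the USP genes lower on day 6) were chosen after their values were seen. Alternatives were another pseudocount, minimum and centring, rank correlation, longer transcripts for depth, and the other day 6 control. Computations ran in Python 3.11.15 with pandas 2.3.3 and numpy 2.4.6, and plots were drawn in matplotlib 3.10.9.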

Additional observations from a re-analysis of the deposited data

How the results depend on the processing

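No paired analysis was possible because the tables pool the numbered knockdown libraries into 1 column, and leaving out single libraries was not possible for the same reason. A value was taken as moved when it shifted by more than 0.56 log2 units, the robust SD between the 2 day 6 controls, and a count when it changed by more than 1.5 times. The 16 ratios of the 4 genes within comparisons and the 24 ratios within columns moved under no other pseudocount or centring run on them. With the other day 6 control, 2 of 8 moved, G3bp1 in the day 6 knockdown to -0.20 and in the USP10 cells to -0.70. Centring on the housekeeping list moved 8 of 32 ratios across comparisons, all of them between knockdown columns, where the housekeeping median was at -0.62 on day 6 and -0.57 on day 8 against day 0. From the day 0 to the day 6 knockdown, Huwe1 was then at 1.15, Usp10 at -0.24, G3bp1 at -0.63 and G3bp2 at -0.21, and to the day 8 knockdown they were at 1.69, -1.72, -0.63 and -0.40. A pseudocount of 1 FPKM gave 88 lower and 124 higher genes in the day 0 knockdown, beside 184 and 207, and 545 higher in the day 8 knockdown, beside 928. A minimum of 5 FPKM tests fewer genes. It gave 90 lower and 117 higher on day 0, 1357 higher on day 6 (beside 2061), 771 lower and 502 higher on day 8 (beside 1180 and 928), and 658 lower and 740 higher in the USP10 cells (beside 1153 and 1114). The housekeeping median, at -0.36 in the day 8 knockdown, turned the small ratios of Usp10, G3bp1 and G3bp2 there to 0.22, 0.02 and 0.27. None of the list medians moved, but the limit of 0.56 log2 units comes from single genes and is wide for a median. Centring on the housekeeping list was not run on the lists. Of 224 list counts, 23 moved. By rank correlation, 4 of 4 members kept fewer than 2 of their 3 most similar genes, so those names depend on the measure.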
